A study of Arabidopsis thaliana with 45 samples.

Results

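The xyloglucan endotransglucosylase/hydrolase (XTH) family is represented by 33 of the 28545 genes in the count tables. A gene was taken as a member when its symbol is XTH plus a number or its definition holds the family name. The symbol alone gave 32 genes and the definition gave 33, because the symbol of XTH17 has letters before XTH. The numbers follow the family tree, with 11 members in XTH1 to XTH11, 15 in XTH12 to XTH26 and 7 in XTH27 to XTH33.

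Xyloglucan is the hemicellulose that coats and tethers cellulose in the primary cell wall of most land plants. XTH enzymes are secreted into the wall, where they cut a xyloglucan chain and either join the cut end to another chain or hand it to water. They are best known from elongating organs and from root hairs, where the wall has to yield without losing its strength. XTH31 and XTH32 belong to the branch known for the hydrolase reaction, and XTH22, also called TCH4, is a classical touch-induced gene.

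All plants were wild-type Columbia-0 Arabidopsis seedlings, 7 days old, grown in constant light apart from 8 h of dark storage. Plants sat in Kennedy Fixation Tubes (KFTs), closed tubes used to fix biology samples in flight, and were taken after 4 h (Q1), 4 h 14 min (Q2), 4 h 18 min (Q3) or 4 h 28 min (Q4), each as roots (R) and leaves (L). A clinostat group, CR for roots and CL for leaves, was rotated for 4 min after 4 h 14 min in the tube. In a separate set, roots came from 4 KFTs held for 4 h (Q1A, Q1B, Q1C and Q1D) and from plants left on their plate (Q1P). There were 45 libraries in 15 groups of 3, each library from 2 pooled plants. The 3 libraries of a group shared a tube or plate, so vessel and condition cannot be told apart, and p-values measure only the spread between these libraries.

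The shallowest library held 29203427 counts, the deepest 117091661 and the median 50467925, and levels are given in CPM, the count of a gene scaled to its library's total count. All 7 green tissue markers were lower, and all 7 root and 8 root hair markers higher, in roots than in leaves. The green markers summed to 152 to 887 CPM in the 30 root libraries and to 40900 to 61300 CPM in the 15 leaf libraries. The root markers summed to 4870 to 9810 CPM in roots and 443 to 1290 CPM in leaves. For the root hair markers the sums were 342 to 939 CPM and 0 to 13.1 CPM.

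The active site is shown first because it carries the residues of catalysis of the family's enzymes. The stretch is 9 codons long, and the capitals mark the codons of its acidic residues, a glutamate, an aspartate and the glutamate that acts as acid and base. They were read from the RefSeq TAIR10.1 annotation, first for the 4 members that differed between tube and plate. Next come the members with the steepest organ differences in each direction, among those with counts in both organs. The last are the hydrolase XTH31 and the member that departs from the pattern.
XTH12 (chr5:23301145-23301171, minus strand): gatGAGattGATttcGAGttcttgggt
XTH13 (chr5:23303645-23303671, minus strand): gatGAAatcGACttcGAGttcttgggt
XTH14 (chr4:13130780-13130806, plus strand): gatGAGattGACttcGAGtttttggga
XTH26 (chr4:14244880-14244906, plus strand): gatGAGataGACttcGAGttcctagga
XTH20 (chr5:19482565-19482591, plus strand): gatGAAataGATtttGAGttcttggga
XTH6 (chr5:26299616-26299642, plus strand): gacGAGctaGATtttGAGttcttggga
XTH31 (chr3:16447882-16447908, minus strand): gatGAGgtcGATatcGAGtttctaggg
XTH11 (chr3:18007740-18007766, plus strand): gatGAGctcTGTttcCAGatcttggga
The 3 acidic codons were present in 32 of the 33 members. In XTH11 the second marked codon encodes cysteine and the third glutamine. The encoded proteins were 269 to 357 residues long. Over 528 pairs of members the coding sequences had a median identity of 64.9%, with XTH17 and XTH18 at 92.2% and XTH12 and XTH13 at 89.7%. Reads were counted only where they mapped uniquely, so levels within such close pairs are less certain. Several members are neighbours. XTH12, XTH13, XTH25 and XTH22 lie close together on chromosome 5, with 1 other coding gene between XTH12 and XTH13. XTH23 with XTH14 and XTH24 with XTH18 and XTH19 form clusters on chromosome 4.

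The first comparison asks which members differed between roots in a tube and roots on the plate. XTH26, XTH12, XTH13 and XTH14 were higher in the roots of the 4 KFTs, by 20.1-fold, 3.74-fold, 3.14-fold and 1.74-fold, and 0 members were lower. XTH14 and XTH26 are known as root enzymes, and XTH26 for its expression in root hairs. That is 4 of 28 members tested, or 14.3%, against 1.01% of 21958 genes called in either direction and 0.592% called higher. A gene was called at a Benjamini-Hochberg adjusted p of at most 0.05 in edgeR's quasi-likelihood test over all genes tested. The other 5 members, XTH1, XTH3, XTH6, XTH25 and XTH29, did not pass the filter on low counts there. In whole organs, a change in RNA per cell and a change in the number of cells of a type cannot be told apart.

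XTH26 was at 1.44, 0.874 and 0.66 CPM in plate replicates 1, 2 and 3. It was at 13.9, 27.8 and 25.3 CPM in Q1A, 21.2, 19.2 and 11.3 in Q1B, 19.3, 22.9 and 24 in Q1C, and 23.9, 14.9 and 15.8 in Q1D. No tube library came near the plate libraries. Its log2 fold change was 4.33 with an SE of 0.33 (edgeR adjusted p = 1.73e-06), and it was called in each of the 4 tubes taken alone.

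XTH12 was at 17.7, 11 and 15.8 CPM on the plate and between 31.9 and 69.8 CPM, with a median of 61.3, in the 12 tube libraries. The groups did not overlap, and the log2 fold change was 1.90 with an SE of 0.25 (edgeR adjusted p = 0.000522). XTH13, which lies near it on chromosome 5, was at 9.95, 5.28 and 7.64 CPM on the plate. In the tubes it was between 13.3 and 33.1 CPM, with a median of 24.7. These groups did not overlap either, with a log2 fold change of 1.65 and an SE of 0.26 (edgeR adjusted p = 0.00368). Because the coding sequences of the pair are close and only uniquely mapped reads were counted, reads that fit both genes would be missing from either count.

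XTH14 was at 130, 108 and 103 CPM on the plate and between 131 and 256 CPM, with a median of 195, in the tubes. The lowest tube library thus lay just above the highest plate library. The log2 fold change was 0.80 with an SE of 0.16 (edgeR adjusted p = 0.022). The call was lost without plate replicate 2 (adjusted p = 0.105), without plate replicate 3 (adjusted p = 0.198) and in each tube taken alone, and over 25 alternatives the adjusted p ran from 0.000134 to 0.455. For XTH12 and XTH13 it stayed at or below 0.05 in 23 and 21 of the 25, and for XTH26 in all 25.

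**Figure D1:**
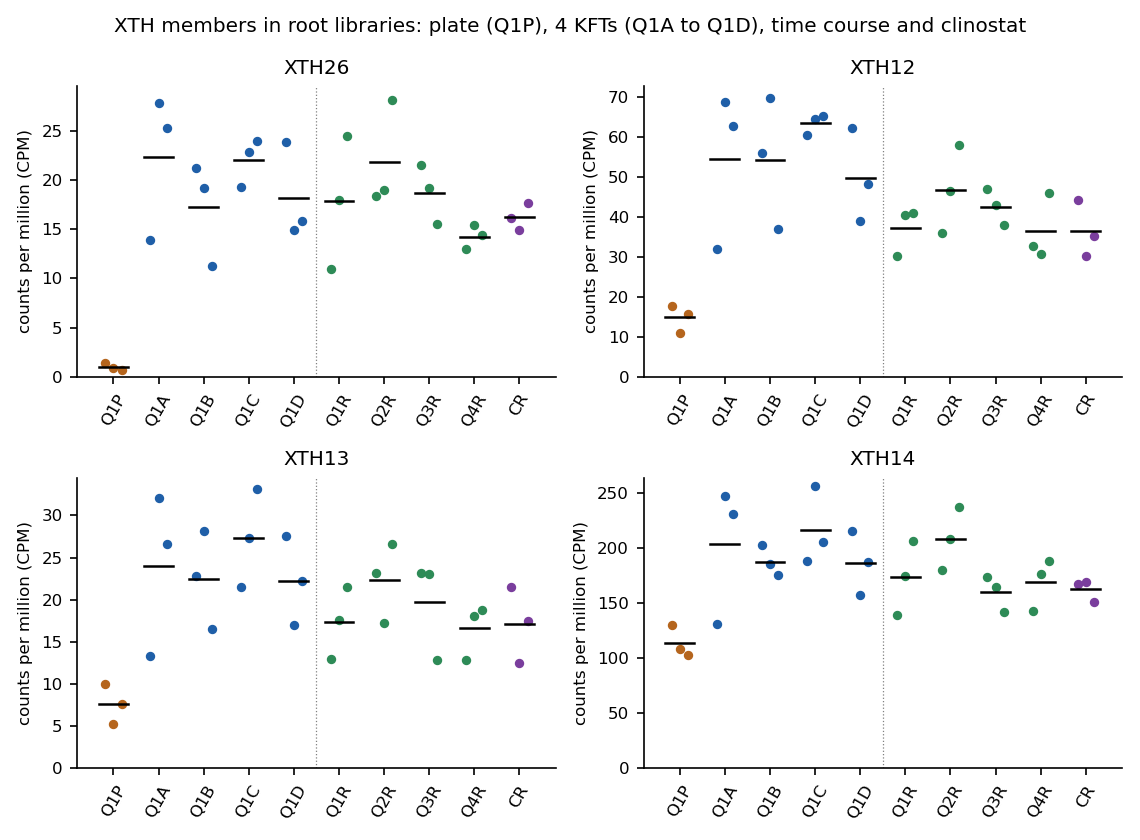
CPM of XTH26, XTH12, XTH13 and XTH14 (linear axes) in each root library, with Q1P in brown, Q1A to Q1D in blue, the time course in green and the clinostat roots in purple. Points are libraries and lines are group means of 3; all 27 tube libraries lie above the 3 plate libraries for each gene, narrowly for XTH14 (131 against 130 CPM).

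The same 4 members were the ones for which all 12 tube libraries lay above every plate library, as did 1.06% of all genes tested. They were also the 4 members for which all 27 tube root libraries did, which held for 0.241% of genes, and 0 members had all tube libraries below the plate. XTH26 ran from 11 to 28.2 CPM over those 27 libraries. The time course and clinostat libraries came from a separate set, in which many genes differ from the KFT set, so this is a description and was not tested.

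The 4 members belong to the XTH12 to XTH26 group, in which 4 of 14 tested were called, against 0 of 8 in XTH1 to XTH11 and 0 of 6 in XTH27 to XTH33. The median log2 fold change of the 28 members was 0.10, and that of all genes 0.00. Of the 24 members not called, XTH7 had the greatest log2 fold change at 1.44 (SE 0.67, edgeR adjusted p = 0.537), with 23.8, 11.4 and 1 CPM on the plate and 19.8 to 84.2 in the tubes. XTH16 had the lowest at -0.65 (SE 0.25, adjusted p = 0.393). XTH17, a root member close to XTH18, stood at 0.90 (SE 0.30, adjusted p = 0.264), and was called in 1 of 25 alternatives, with the libraries of each vessel summed (adjusted p = 0.0307), where XTH14 was not.

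**Figure D2:**
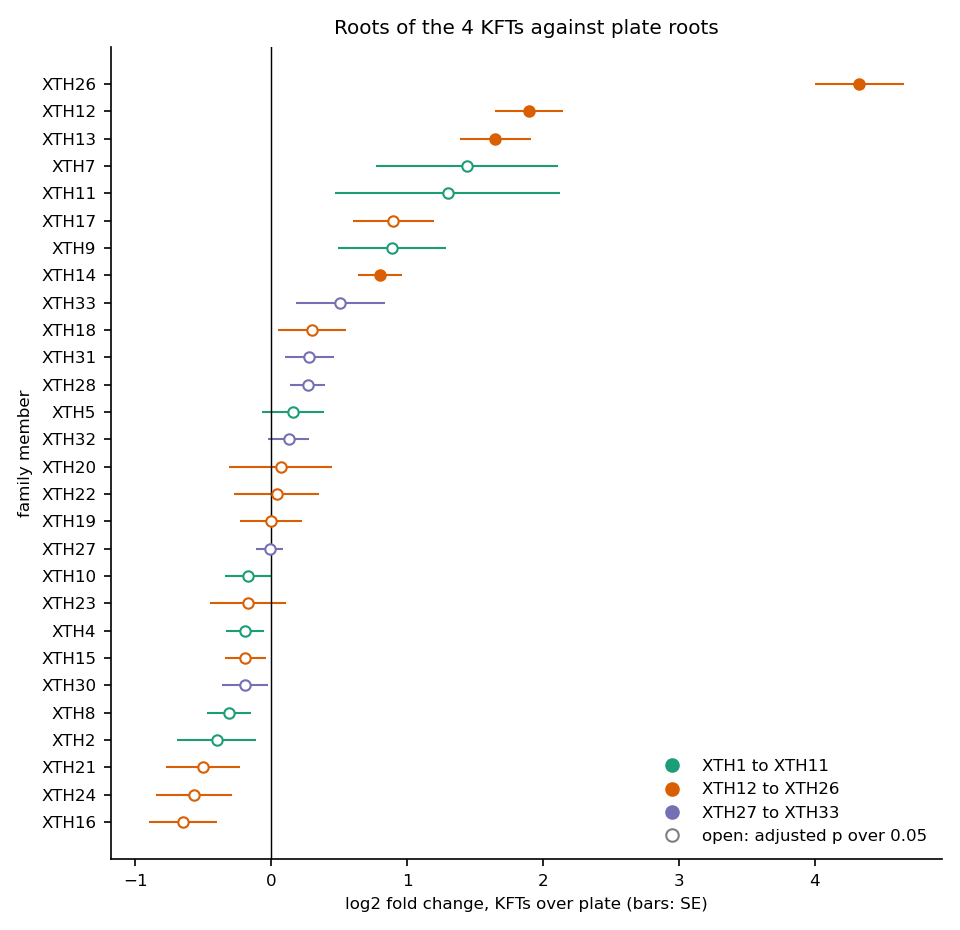
log2 fold change (x axis) of the 28 members tested in the roots of the 4 KFTs over plate roots, with SE bars from edgeR. Filled points are the 4 members with an adjusted p of at most 0.05; XTH26 stands apart at 4.33 and the other 24 members lie between -0.65 and 1.44.

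Among the 4 equally treated tubes, 0 of 28 members were called in edgeR, with 2 at an unadjusted p under 0.05 and 0 called in DESeq2. The shares of all genes under these rules were 0%, 5.42% and 0.336%. Each tube alone against the plate called 1 member in Q1A and Q1B, which was XTH26, and 2 in Q1C and Q1D, XTH12 and XTH26, beside 0.0613%, 0.0987%, 0.0471% and 0.165% of genes in Q1A, Q1B, Q1C and Q1D.

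Root hair genes moved in part with these members. Of 8 root hair markers, 2 were higher in the tubes, beside 0.592% of all genes tested. PRP1, a wall protein gene, rose by 2.79 on the log2 scale (edgeR adjusted p = 0.0038), and RSL4, a transcription factor gene of hair growth, by 0.76 (adjusted p = 0.0483). The markers summed to 346 to 503 CPM on the plate and 342 to 939 CPM in the tubes, and none was at 0. The lowest sum, 342 CPM, was in Q1A replicate 1, where XTH26 was at 13.9, XTH12 at 31.9 and XTH13 at 13.3 CPM, each above all plate libraries. Of the other markers, EXPA7 stood at 0.21 (adjusted p = 0.852) and RHD6 at -0.39 (adjusted p = 0.558). Their part in the XTH result was not tested.

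Of 19 genes that build or trim xyloglucan, 1 was called, beside 1.01% of all genes tested. CSLC12, of the family that makes the glucan backbone, was at 10.3, 5.1 and 8.1 CPM on the plate and 11.2 to 27.1 CPM in the tubes, a log2 fold change of 1.26 with an SE of 0.23 (edgeR adjusted p = 0.0111). The median of the 19 genes was -0.05. The summed CPM of the XTH family was 1450, 1080 and 1350 on the plate and 1270 to 1740 in the tubes, so the summed ranges overlapped.

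The 4 members are shown by the 250 bases before their annotated starts (RefSeq TAIR10.1, each read in the gene's own direction), since all were higher in the tubes. Capitals mark runs of at least 11 bases that occur in more than one of the 4 windows.
XTH12 (chr5:23301690-23301939, minus strand): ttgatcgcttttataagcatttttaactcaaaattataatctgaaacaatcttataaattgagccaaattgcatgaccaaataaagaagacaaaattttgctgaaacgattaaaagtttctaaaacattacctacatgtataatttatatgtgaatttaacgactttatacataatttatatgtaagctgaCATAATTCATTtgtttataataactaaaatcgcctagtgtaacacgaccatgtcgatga
XTH13 (chr5:23304096-23304345, minus strand): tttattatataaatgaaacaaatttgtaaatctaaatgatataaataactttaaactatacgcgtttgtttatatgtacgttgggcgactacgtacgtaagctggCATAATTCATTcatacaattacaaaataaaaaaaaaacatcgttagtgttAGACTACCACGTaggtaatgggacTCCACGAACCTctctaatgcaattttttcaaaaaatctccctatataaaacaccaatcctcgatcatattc
XTH14 (chr4:13130041-13130290, plus strand): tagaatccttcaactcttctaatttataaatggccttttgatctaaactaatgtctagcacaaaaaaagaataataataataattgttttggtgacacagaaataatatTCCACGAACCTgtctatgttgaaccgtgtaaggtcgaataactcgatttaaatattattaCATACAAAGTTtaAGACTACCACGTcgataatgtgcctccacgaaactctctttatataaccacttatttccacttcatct
XTH26 (chr4:14244040-14244289, plus strand): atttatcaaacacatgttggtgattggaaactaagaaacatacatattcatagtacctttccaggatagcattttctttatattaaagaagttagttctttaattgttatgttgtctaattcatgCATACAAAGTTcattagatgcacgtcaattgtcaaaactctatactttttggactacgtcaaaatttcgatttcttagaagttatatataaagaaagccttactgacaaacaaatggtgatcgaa
XTH13 and XTH14 share AGACTACCACGT, which occurs on either strand in 2 of 27437 windows of this length, or 0.00729%, and TCCACGAACCT, in 3 or 0.0109%. XTH12 and XTH13 share CATAATTCATT, in 23 windows or 0.0838%, and XTH14 and XTH26 share CATACAAAGTT, in 7 or 0.0255%. Over the whole family, again on both strands, the root hair element (RHE) matched in 0 of 33 windows and in 0.754% of all windows, and CACGTG in 0 of 33 and 6.49%. The wider word CANNTG, which includes CACGTG, was in 21 members, or 63.6% against 55.3%, and ATGTA in 24, or 72.7% against 52.1%. A match is a description of letters, not a binding site. The shared runs were picked because windows of these members hold them, and their counts include those same windows. Their small shares are therefore no test. The coding sequences of XTH13 and XTH14 were 79.2% identical, and those of XTH12 and XTH13 89.7%.

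The second question is where the members are expressed. Over the unrotated time course, 28 of 32 members tested differed between roots and leaves, 17 higher in roots and 11 higher in leaves. That is 87.5% of members, against 71.5% of all 23436 genes tested, with 36.6% higher and 34.9% lower in roots. The median log2 fold change, roots over leaves, was 1.31 over the members and 0.03 over all genes. When libraries were scaled by their totals alone the median of all genes moved to 0.36, and 27 members were called without a change of direction. In XTH12 to XTH26, 10 of 15 were higher in roots and 3 in leaves, while in XTH1 to XTH11 it was 4 and 6 of 10, and in XTH27 to XTH33 it was 3 and 2 of 7.

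Among members with counts in both organs, those with the greatest root levels over leaves all belong to XTH12 to XTH26. XTH20 was at 9.13 to 70.4 CPM in the 12 root libraries (median 25.7) and 0 to 0.401 CPM in the 12 leaf libraries (median 0), a log2 fold change of 9.17 with an SE of 0.59. XTH21, known from root growth, was at 18.7 to 30.5 CPM (median 23.5) against 0 to 1.17 CPM (median 0), a log2 fold change of 8.30 with an SE of 0.79. For both, every root library lay far above every leaf library.

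The 4 members that were higher in tubes showed the same pattern. XTH26 was at 11 to 28.2 CPM in roots (median 18.2) and 0 to 1.03 CPM in leaves (median 0.0386), a log2 fold change of 8.25 with an SE of 0.64. XTH13 was at 12.8 to 26.6 CPM (median 18.4) against 0 to 1.17 CPM (median 0), with 7.66 and an SE of 0.84. XTH14 was at 139 to 237 CPM (median 175) against 0 to 4.42 CPM (median 0.326), with 7.52 and an SE of 0.58. XTH12, at mean levels of 40.7 and 0.295 CPM, had 6.92 with an SE of 0.50. None of these root and leaf libraries was in the tube and plate comparison. XTH20 and XTH21, with organ differences at least as large, had a log2 fold change between tubes and plate of 0.07 (SE 0.38) and -0.50 (SE 0.27), neither called.

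XTH2 was a low root member. It had 336 counts over the 12 root libraries and 0 over the 12 leaf libraries, which is at least 78.1-fold higher with the leaves placed at a floor of 3 counts over the group. Such a floor covers counting error only. The smaller root excesses ran from 2.46-fold for XTH33, whose protein is known at the plasma membrane, to 11.4-fold for XTH31, and included XTH5, XTH8, XTH10, XTH15, XTH17, XTH18, XTH19 and XTH30.

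Leaf members were led by XTH6, with 57.8 to 107 CPM in the 12 leaf libraries (median 85.5) and 0 to 0.416 CPM in roots (median 0), a log2 fold change of -12.34 with an SE of 0.51. XTH22, the touch gene TCH4, was at 101 to 179 CPM in leaves (median 154) and 10.3 to 28.5 CPM in roots (median 16.7), with -3.46 and an SE of 0.16. For both, the organs did not overlap.

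XTH24 was at 98.5 to 1240 CPM in leaves (median 267) and 15.6 to 79.6 CPM in roots (median 33.9), with -3.66 and an SE of 0.38. XTH25 was low in both organs, at 0 to 3.13 CPM in leaves (median 1.08) and 0 to 0.328 CPM in roots (median 0), with -6.52 and an SE of 1.10. XTH3 rested on 16 counts in roots and 102 in leaves, at 0 to 0.231 and 0 to 1.03 CPM with both medians at 0. Its log2 fold change of -4.94 (SE 1.60, edgeR adjusted p = 0.0119) was not called in DESeq2 (adjusted p = 0.146) or without Q1L replicate 1, Q2L replicate 3, Q3L replicate 3 or Q4L replicate 2.

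The smaller leaf excesses were those of XTH4, XTH7, XTH9, XTH11, XTH27 and XTH28, from -2.23 for XTH7 to -0.99 for XTH9. The XTH9 excess was not present at each time, since Q1R had a mean of 191 CPM and Q1L of 165 CPM. XTH11, without the complete acidic site, was called only narrowly at -1.71 (SE 0.74, edgeR adjusted p = 0.0446), and in 11 of 29 alternatives, which ran from 0.00806 to 0.106. Not called were XTH16 at -0.00, XTH32 at -0.13, XTH23 at -0.18 and XTH29 at -1.88 (edgeR adjusted p = 1, 0.416, 0.511 and 0.126). XTH1 had 5 counts in the leaves and 0 in the roots of the unrotated time course and was not tested.

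**Figure D3:**
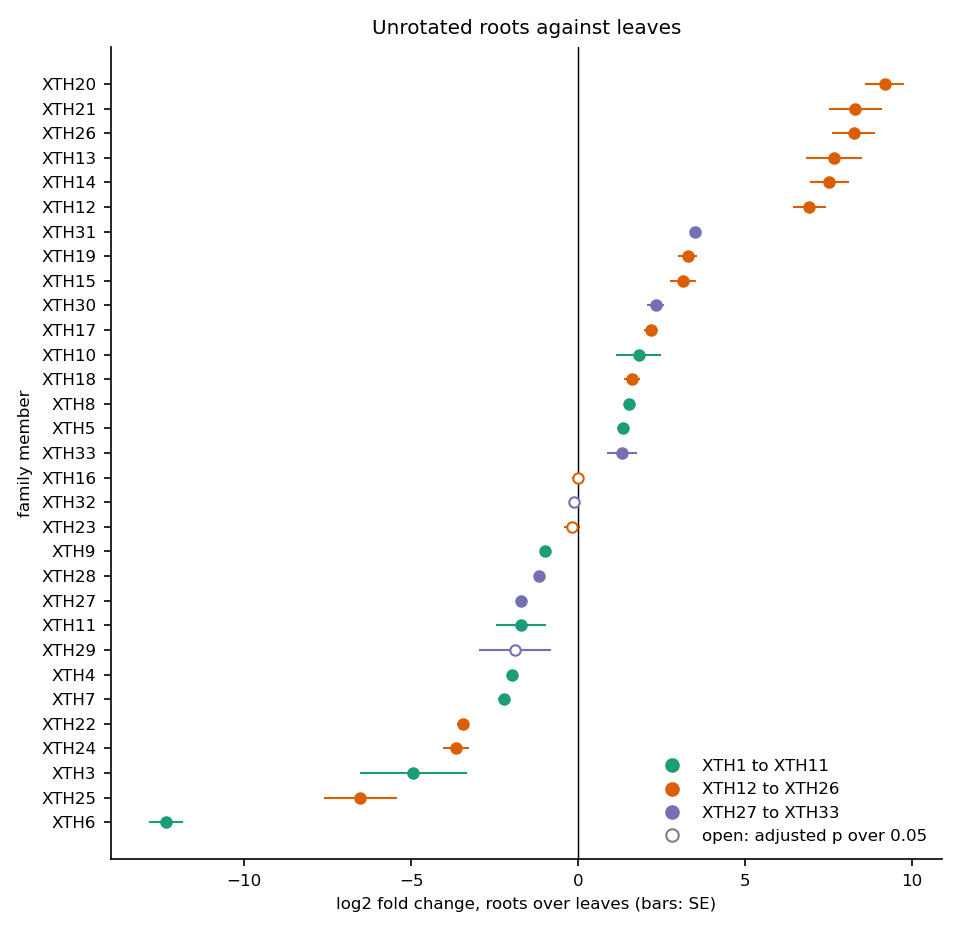
log2 fold change (x axis) of 31 members in unrotated roots over leaves, with SE bars from edgeR; XTH2 (0 counts in leaves) and XTH1 (not tested) are left out. Filled points have an adjusted p of at most 0.05, and the ends are XTH20 at 9.17 and XTH6 at -12.34.

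The clinostat roots and leaves were not in that fit. Of the 17 members called higher in roots, 16 had every clinostat root library above every clinostat leaf library, the exception being XTH2, as did 91.7% of all genes called in that direction. Of the 11 called higher in leaves, 9 did not overlap the other way, the exceptions being XTH3 and XTH9, against 60.2% of genes. XTH3 overlapped. XTH9 went against the called direction, with 196, 183 and 251 CPM in CR above the 175, 164 and 162 CPM of CL. XTH6 was at 0 CPM in all 3 CR libraries and at 91.9, 89.4 and 74.3 CPM in CL.

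Levels of different members can be set side by side per kilobase of exon, as mean CPM per kb. In roots XTH31 was first at 169 (140 to 233 over 12 libraries), then XTH14 at 152 (119 to 203) and XTH4 at 103 (82.6 to 116). The ranges of XTH31 and XTH14 overlapped, while XTH4 stayed below both. On the plate the order was XTH31 at 127, XTH14 at 97.4 and XTH4 at 90.3, and in the 4 KFTs it was XTH14 at 170, XTH31 at 155, XTH18 at 81.2 and XTH4 at 79.5.

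In leaves XTH24 was at 335 CPM per kb (81.4 to 1030), XTH4 at 321 (268 to 387) and XTH7 at 135 (89.1 to 202). XTH24 and XTH4 did not differ beyond their spread. In the time course XTH4 was among the first 3 in both organs, in CPM at 109 to 153 in roots (median 136) and 353 to 509 in leaves (median 418), a log2 fold change of -1.97 with an SE of 0.07. XTH31 was at 195 to 325 CPM in roots (median 219) and 7.5 to 28.9 CPM in leaves (median 16.4), with 3.51 and an SE of 0.14, and XTH7 at 15.8 to 137 CPM (median 49.9) and 115 to 261 CPM (median 172). The summed CPM of the family ran from 1330 to 1890 in roots and 1420 to 2660 in leaves, and these ranges overlapped.

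Of the 19 genes that build or trim xyloglucan, 9 were higher in roots and 4 in leaves. Over all genes tested 71.5% were called, 36.6% higher in roots and 34.9% higher in leaves, so this is near the background. XUT1, which adds galacturonic acid to the xyloglucan of root hairs, was at a mean of 29.9 CPM in roots and 0.183 CPM in leaves, a log2 fold change of 7.24. FUT1, the fucosyltransferase, and MUR3, a galactosyltransferase, were higher in roots by 1.76 and 1.22 on the log2 scale. BGAL10, which trims galactose from xyloglucan, was lower in roots by the most, at -0.75.

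The third question is what a few more minutes in the tube did to the members. In roots, XTH9 and XTH7 were lower at Q4 than at Q1, with XTH18 lower and XTH24 higher by smaller amounts. These were 4 of 28 members, or 14.3%, against 1.16% of 20912 genes called.

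XTH9, known from shoot apices, was at 218, 192 and 164 CPM in Q1R and 49.2, 63.6 and 67.1 CPM in Q4R. The groups were well apart, with a log2 fold change of -1.61 and an SE of 0.14 (edgeR adjusted p = 7.79e-05), and the call was kept with each library left out in turn. XTH7 was at 137, 64.5 and 67.2 CPM in Q1R and 15.8, 28.6 and 21 CPM in Q4R. Its groups did not overlap, at -1.98 with an SE of 0.32 (adjusted p = 0.032), but without Q4R replicate 3 the adjusted p was 0.19, and it was called in 8 of 11 alternatives (adjusted p from 0.00115 to 0.195).

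XTH18 was at 98, 78.5 and 98 CPM in Q1R and 48.2, 47.2 and 63.8 CPM in Q4R, a log2 fold change of -0.72 with an SE of 0.15 (edgeR adjusted p = 0.0326). XTH24 was at 27.7, 32.2 and 27.7 CPM in Q1R and 43.1, 41.8 and 59.9 CPM in Q4R, with 0.79 and an SE of 0.17 (adjusted p = 0.0363). Neither pair of groups overlapped. Both calls were close to the threshold and were lost without Q1R replicate 1 (adjusted p = 0.152 for XTH18 and 0.16 for XTH24), the highest of 11 alternatives for each. XTH18 was also lost without Q1R replicate 3 or Q4R replicate 1 or 2, and XTH24 without any library but Q4R replicate 2. Over the family, the median log2 fold change was -0.04, and over all genes -0.01.

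XTH9 and XTH7 varied widely over all root groups. The group means of XTH9 ran, from low to high, through Q1P at 41.5 CPM, Q1D at 57, Q4R at 60, Q1B at 69.6, Q1C at 83.5, Q1A at 96.6, Q2R at 110, Q3R at 135, Q1R at 191 and CR at 210. Most neighbours in this order had overlapping libraries, and Q1R and CR, the highest, overlapped with each other. The means of XTH7 ran from 12.1 CPM in Q1P and 21.8 in Q4R to 70.8 in CR and 89.5 in Q1R. For both genes the Q2R and Q3R libraries overlapped.

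Green tissue signal moved in part with these genes. XTH7 was higher in leaves in all 4 unrotated groups and XTH9 was not, since its Q1R and CR means were above those of Q1L and CL. The library with the highest green marker sum, Q1A replicate 1 at 887 CPM, had the highest XTH7 (84.2 CPM) and XTH9 (158 CPM) of its set. In Q1R the sums were 677, 386 and 521 CPM and in Q4R 289, 434 and 217 CPM, with a median log2 fold change of -0.53. Of 7 green markers, edgeR called 0 there and DESeq2 1, beside 1.16% and 2.48% of genes. Between Q1R and Q1A to Q1D, where XTH7 and XTH9 were higher in Q1R, edgeR called 2 of the 7 higher in Q1R. DESeq2 called 4, and each tool called 28.8% of genes there. Plate replicate 2 had a sum of 564 CPM with XTH7 at 11.4 CPM. The part of green tissue in the XTH7 and XTH9 results was not tested.

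**Figure D4:**
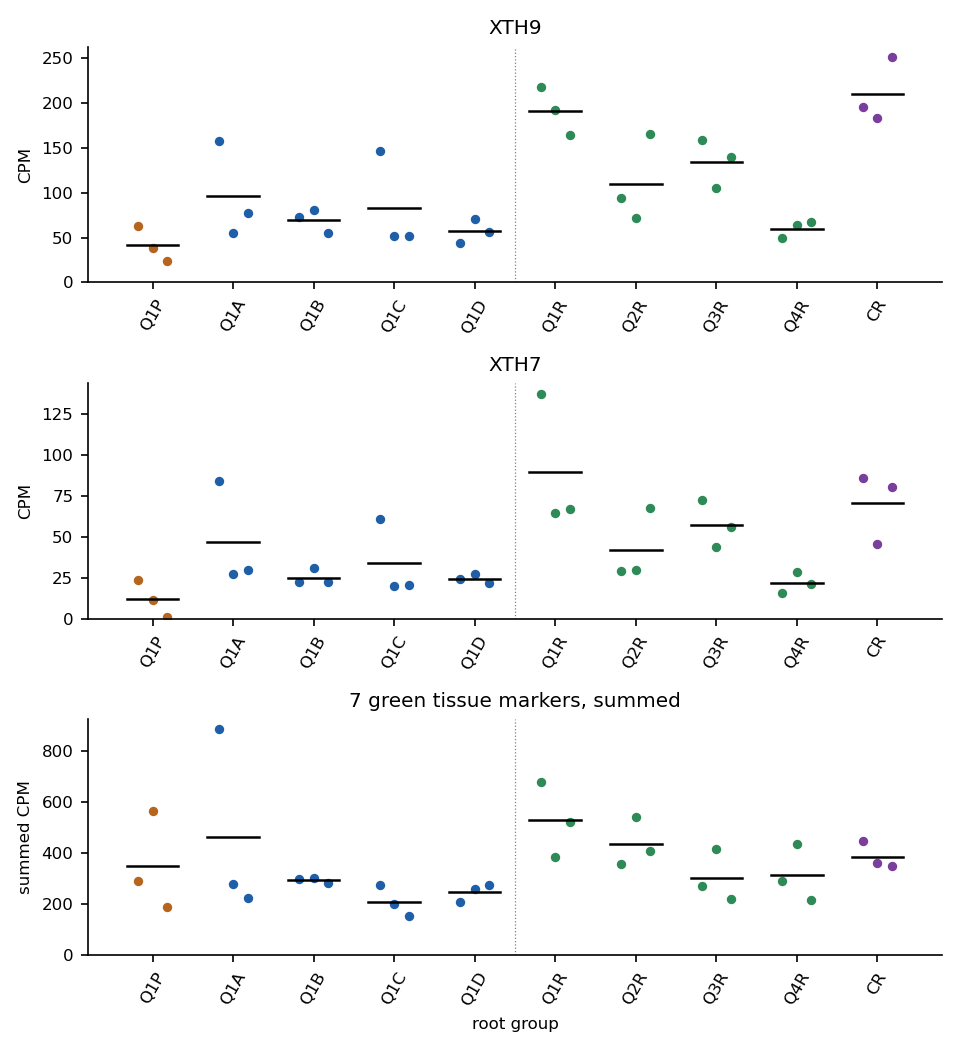
CPM of XTH9 and XTH7 and the summed CPM of 7 green tissue markers in each root library (points; lines are means of 3), coloured by set. XTH9 falls from 164 to 218 CPM in Q1R to 49.2 to 67.1 CPM in Q4R, and Q1A replicate 1 is the highest of its set in all 3 panels.

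At Q3, 2 of 28 members were called in roots, or 7.14% against 5.32% of 20993 genes, which is near the background. XTH30 was at 101, 75.7 and 94.5 CPM in Q1R and 56.1, 59 and 59.5 CPM in Q3R, a log2 fold change of -0.58 with an SE of 0.12 (edgeR adjusted p = 0.0181). XTH16 was at 30.2, 40.4 and 48 CPM in Q1R and 61.4, 65.8 and 49.2 CPM in Q3R, with 0.63 and an SE of 0.17 (adjusted p = 0.0472). Neither gene overlapped between the groups, XTH16 by a margin of 48 to 49.2 CPM. The XTH30 call was lost without Q1R replicate 1 (adjusted p = 0.0537), Q1R replicate 3 (0.071) or Q3R replicate 3 (0.0515), and that of XTH16 without Q1R replicate 1 or 2 or Q3R replicate 1 or 2 (0.105 to 0.136). XTH16 was also lost in edgeR with library totals alone (adjusted p = 0.0614) and with a replicate block (adjusted p = 0.0554). At Q2, 0 of 28 members were called in roots with edgeR, with 3 at an unadjusted p under 0.05, and DESeq2 called XTH24. The shares of all genes were 0.411%, 11.2% and 2.00%. XTH9 was at 93.8, 72 and 165 CPM in Q2R, and without the third of these libraries it was called in edgeR.

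In leaves no member was called at any time with edgeR. The counts at an unadjusted p under 0.05 were 3 of 26 at Q2, 1 of 25 at Q3 and 2 of 26 at Q4, where 6.01%, 3.32% and 3.56% of genes passed and 0%, 0.0147% and 0% were called. DESeq2 called XTH30 at Q2, XTH17 at Q3 and 0 members at Q4, beside 0.666%, 0.212% and 0.200% of genes. Single leaf libraries stood far from their group. XTH24 was at 620, 281 and 532 CPM in Q1L, 253, 98.5 and 106 CPM in Q2L, 166, 1240 and 414 CPM in Q3L and 804, 228 and 115 CPM in Q4L. The libraries of one group thus lay as far apart as 166 and 1240 CPM. All Q2L libraries were below all Q1L libraries, narrowly at 253 against 281 CPM, and the other pairs of groups overlapped, while XTH22 and XTH4 spanned narrower ranges in the same libraries.

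**Figure D5:**
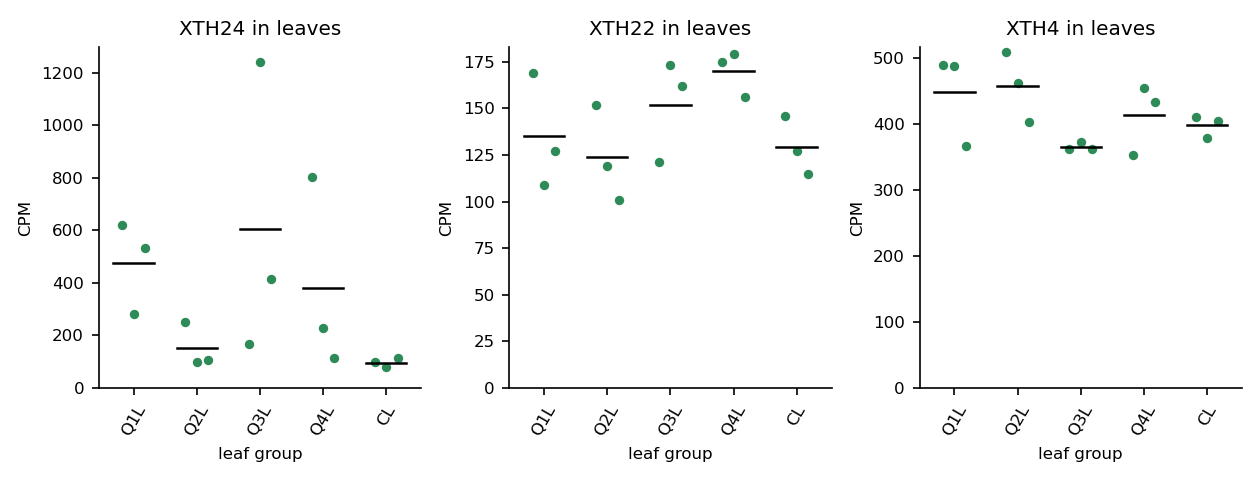
CPM of XTH24, XTH22 and XTH4 in the 15 leaf libraries by group (points; lines are means of 3; axes start at 0 and differ). XTH24 ranges from 79.8 to 1240 CPM, XTH22 from 101 to 179 CPM and XTH4 from 353 to 509 CPM.

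The differences between root and leaf changes were tested as interactions. With edgeR 0 members passed at Q2, Q3 and Q4, against 0.00853%, 0.00427% and 0.00853% of genes, with 5, 3 and 5 of 32 members at an unadjusted p under 0.05, against 7.23%, 8.15% and 9.51%. At Q4 the interaction of XTH9 was -1.81 (edgeR adjusted p = 0.0921) and that of XTH7 -1.77 (adjusted p = 0.25), and DESeq2 called both along with XTH26, which is near 0 in leaves. In edgeR XTH9 was called without Q2R replicate 2 and without Q2R replicate 3. DESeq2 called 0 members at Q2 and Q3, and 0.713%, 0.473% and 0.772% of genes at Q2, Q3 and Q4.

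The fourth question is the response to 4 min of clinorotation. In roots 0 of 28 members were called in CR against Q3R with edgeR, with 5 at an unadjusted p under 0.05, and DESeq2 called XTH16 and XTH9. The shares of all genes were 0.00475%, 14.0% and 1.65%. XTH16 was at 31.8, 35.2 and 24.9 CPM in CR and 61.4, 65.8 and 49.2 CPM in Q3R, which did not overlap, with a log2 fold change of -0.96 and an SE of 0.16 (edgeR adjusted p = 0.184, DESeq2 adjusted p = 0.000121). Over 14 alternatives it was called in 4, and the highest adjusted p was 0.652. Without CR replicate 1, the deepest library, edgeR called XTH15 and XTH16 and 1040 genes in all. Q1R, at 30.2 to 48 CPM, overlapped with CR. XTH9 was at 196, 183 and 251 CPM in CR against 159, 105 and 140 CPM in Q3R, with 0.63 (edgeR adjusted p = 0.218, DESeq2 adjusted p = 0.019), and was called in 1 of 14 alternatives.

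In leaves 0 of 23 members were called in CL against Q3L with edgeR, with 8 at an unadjusted p under 0.05 and 0 called in DESeq2. The shares of all genes were 0.00490%, 7.04% and 0.528%. XTH24 was at 97.2, 79.8 and 114 CPM in CL against the 166, 1240 and 414 CPM of Q3L, a log2 fold change of -2.73 (edgeR adjusted p = 0.663). The groups did not overlap, and the CL libraries also lay below every Q1L library and, narrowly, every Q4L library. Q2L, at 98.5 to 253 CPM, overlapped with CL. The tissue interaction for clinorotation called 0 members in edgeR, with 9 at an unadjusted p under 0.05, and DESeq2 called XTH12 and XTH24, against 0.0311%, 12.4% and 1.65% of genes. Without Q3L replicate 1, edgeR called XTH24. XTH12 was near 0 in leaves, at 0.131, 0.0915 and 0.755 CPM in Q3L and 0 in all 3 CL libraries. Root markers moved with it in leaves, with 7 markers summing to 751, 1100 and 814 CPM in Q3L and 492, 503 and 626 CPM in CL, where AIR1, CASP1 and MYB36 were at 0. The sums of Q2L, at 980, 587 and 443 CPM, overlapped with those of CL, while those of Q1L and Q4L lay above CL. The median interaction of the 7 root markers was 3.01 on the log2 scale, with 0 of 7 called in edgeR and 2 in DESeq2. Their part in the XTH12 value was not tested.

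Q1R and the 4 KFTs of the separate set carry the same Q1 label for roots, which gives the difference between sets. Of 28 members, 9 were called, 7 higher and 2 lower in Q1R. This is 32.1% against 28.8% of 22032 genes, near the background. XTH23, a neighbour of XTH14, was at 33.8, 23.2 and 18.4 CPM in Q1R and 2.79 to 9.62 CPM in the 12 tube libraries (median 6.43), a log2 fold change of 2.05 with an SE of 0.25 (edgeR adjusted p = 1.68e-05). XTH2 was at 0.277, 0.32 and 0.26 CPM in Q1R and 1.11 to 2.86 CPM in the tubes (median 1.85), with -2.80 and an SE of 0.36 (adjusted p = 2.49e-05). Neither gene overlapped between the sets.

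The other calls were smaller. XTH7 was higher by 1.42, XTH9 by 1.28, XTH22 by 0.73, XTH4 by 0.47, XTH32 by 0.44 and XTH27 by 0.28 on the log2 scale, and XTH12 was lower at -0.62. In Q1R XTH22 was at 28.5, 16.9 and 10.6 CPM against 5.88 to 16.1 (median 10.4), and XTH4 at 149, 153 and 146 CPM against 71.5 to 116 (median 112). XTH32 was at 35.7, 24.8 and 22 CPM against 13 to 25.8 (median 18.9), XTH27 at 59.5, 65.1 and 57.7 CPM against 38.9 to 55.3 (median 49.8), and XTH12 at 30.3, 40.4 and 41 CPM against 31.9 to 69.8 (median 61.3). Of these 5, XTH4 and XTH27 did not overlap. With each library left out in turn XTH2, XTH4, XTH9 and XTH23 stayed called, and without Q1R replicate 1 they were the only 4. The log2 fold change of XTH26 between the sets was -0.20 (SE 0.25, edgeR adjusted p = 0.57).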

How the data were processed

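The authors trimmed reads with cutadapt, mapped them with STAR to TAIR10, removed duplicates with SAMtools and in-house scripts and counted uniquely mapped reads per gene with HTSeq; whether counting used the strand is not given in the sources used here. The deposited tables hold these raw counts, which were used here, and the authors' DESeq2 results (mean levels, log2 fold changes, p-values and adjusted p-values), which were not used. The 24 tables hold 45 libraries, and 0 of 2955609 values present in several tables differed. Q4L replicate 1 carries a Q3 source name but a Q4 title and treatment, and was taken as Q4.

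Every comparison was tested over all genes, on the libraries it names, with edgeR 4.0.16 in R 4.3.3 (filterByExpr, TMM, robust quasi-likelihood test, Benjamini-Hochberg adjustment, call at 0.05 with no fold threshold). The SE is the log2 fold change over the square root of F. CPM are counts over library totals. The code was tested on simulated data. Alternatives were DESeq2 1.42.0, other scalings, no filter, a fold threshold, summed vessels, other clinostat controls, a replicate block and leaving out each library; scaling by library totals alone was chosen after seeing the data. Exon lengths and sequences are from RefSeq TAIR10.1, whose locus tags cover 28285 of the genes.

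The members and gene lists were chosen with earlier results of these data known. Values in every library (or lowest, median and highest) are given for members called in any comparison other than roots against leaves, for the 3 highest per kb in each organ and for the 5 greatest organ differences in each direction. The ranking of organ differences leaves out XTH1 and XTH2, each with 0 counts in 1 organ. Replicate numbers were not used to pair samples in the main tests, since in no comparison did every same-number pair correlate above 0.1. Such correlations cannot show that no plants were shared. The authors describe leaves and roots dissected from each set of plants, so the organs of a number may share plants. The main test of roots against leaves treated them as separate.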

Additional observations from a re-analysis of the deposited data

How the results depend on the processing

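Of the log2 fold changes of called members, 1110 kept their direction and their call under an alternative, 95 kept the direction and lost the call, and 0 reversed. Most of these values came from roots against leaves, with 28 called members and 24 libraries to leave out. Calls were lost more often in each of the other comparisons with called members. The fold threshold used the same fit, so it could not change a direction. DESeq2 called 1 member in Q2R, 4 in Q3R (XTH9, XTH16, XTH30 and XTH31, beside 8.28% of genes), 1 each in Q2L and Q3L, 2 in CR, 3 in the tissue interaction at Q4 and 2 in that for clinorotation. Requiring also a log2 fold change of at least 1 left 4 members in Q1R against Q1A to Q1D, 0 in Q3R and 2 in Q4R, beside 8.89%, 0.557% and 0.631% of genes. An unadjusted p with that fold gave 1 among the 4 KFTs, 4 in Q1R against Q1A to Q1D, 0 in Q3R, 2 in Q4R, 2 in Q2L, 1 in Q3L, 1 in Q4L, 1 in CL, and 4, 2, 4 and 4 in the interactions at Q2, Q3, Q4 and for clinorotation. The shares of all genes under this last rule were, in the same order, 1.71%, 10.7%, 1.73%, 2.31%, 1.57%, 0.891%, 1.24%, 1.92%, 5.12%, 4.11%, 5.55% and 5.96%. No filter on low counts gave 1 member in CR, beside 15 genes. Against the plate, single KFTs gave 1, 1, 2 and 2 members. The cause of these changes was not tested, except that a stricter or looser rule calls fewer or more genes by construction.

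With the replicate number as a block, 1 member was called in Q2L (XTH24) and 1 in CR (XTH16), beside 42 and 12 genes. The 4 KFTs against the plate gave 4, beside 210 genes. Q3R gave 2 (XTH7 gained, XTH16 lost at an edgeR adjusted p of 0.0554), beside 976 genes. Q4R gave 4 (XTH32 gained, XTH7 lost at an adjusted p of 0.195), beside 287 genes. Roots against leaves, blocked by condition and number, gave 26 beside 15557 genes. There XTH3 (edgeR adjusted p = 0.221) and XTH11 (edgeR adjusted p = 0.106) were not called. Whether the numbers pair roots with leaves is not known. TMM scaling of levels moved the leaf means of XTH4 from 421 to 492, XTH9 from 180 to 211 and XTH28 from 91.7 to 108 CPM.

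Leaving out each library gave these counts of members, with all genes called in brackets. The 4 KFTs against the plate gave 3 to 4 (78 to 236), and the KFTs among themselves 0 to 0 (0 to 1). Q1R against Q1A to Q1D gave 4 to 10 (4610 to 6448). Root times gave 0 to 1 in Q2R (45 to 80), 0 to 2 in Q3R (222 to 741) and 2 to 4 in Q4R (108 to 300). Leaf times gave 0 to 0 in Q2L (0 to 51), Q3L (0 to 7) and Q4L (0 to 0). Clinorotation gave 0 to 2 in CR (0 to 1040) and 0 to 0 in CL (0 to 84). Roots against leaves gave 26 to 29 (16315 to 17517). The interactions gave 0 to 0 at Q2 (0 to 20) and Q3 (0 to 11), 0 to 1 at Q4 (1 to 12) and 0 to 1 for clinorotation (3 to 165). With 3 libraries a group from 1 vessel, the members with few counts (XTH1, XTH3, XTH25 and XTH29) are the least certain.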

Other observations

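XTH25 and XTH11 stood out in 1 root library, noticed after their values were seen. In Q1B replicate 2, XTH25 was at 20.5 CPM, while the other 29 root libraries ran from 0 to 0.328 CPM with a median of 0.0527. XTH11 was at 9.42 CPM there and at 0 to 4.76 CPM, with a median of 0.794, in the others. The seed storage protein gene CRA1 was at 4060 CPM in the same library and at 0 to 97.5 CPM, with a median of 0, in the other 29. Between tubes and plate XTH11 was not called in edgeR, and XTH25 did not pass the filter on low counts. No link between these values was tested.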
